A study of Mus musculus with 9 samples.

Results

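The genes described here are a list of 40 interferon-stimulated genes, chosen by name with earlier results of these data known. The list holds RNA and DNA sensors, transcription factors, antiviral effectors, protein modifiers, antigen-processing genes and a chemokine. Each gene was represented by the probe set annotated to its symbol, and by the one with the highest mean over the 9 arrays where several existed. Of the 40 genes, 37 were measured, among 19938 genes tested in all. Isg15 and Gbp2 lay only on probe sets that the annotation assigns to several symbols, and Ifi44 had no probe set named in it, so these 3 genes were not analysed here.

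The cells were mouse embryonic fibroblasts of 3 genotypes at Rb1, with 3 arrays each. Wild-type cells (Rb +/+) are called WT. Cells with both copies of an allele mutated at the site that contacts most E2F transcription factors (Rb ∆G/∆G) are called ΔG. Cells labelled Rb -/- are called null. All 9 cultures were plated at low density in a 15 cm dish and moved after 24 h to medium with 0.1% serum, which makes normal fibroblasts leave the cell cycle. The labels name no treatment, such as interferon or a virus, for any culture. The series text speaks of littermates, but no label says which arrays share a litter or which embryo a culture came from. The p-values therefore describe the scatter among these 9 samples, part of which may be technical. Total RNA was read on whole-transcript arrays, and all levels below are log2 signals. A difference of log2 values between genotypes is given below with its standard error (SE) and, where useful, as a fold. A gene was called when its limma p-value, adjusted over all genes by Benjamini-Hochberg, was at or under 0.05, and only called genes are said to have risen or fallen.

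Interferons are secreted proteins that warn cells of a virus. They bind receptors on the same or neighbouring cells, whose kinases activate transcription factors that bind a short DNA element, the ISRE, in front of the interferon-stimulated genes. Fibroblasts are a classical source of interferon beta, and they keep a low level of many of these genes even without infection.

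Rb1 itself measured 8.93, 9.17 and 9.16 in WT, 9.53, 9.76 and 9.54 in ΔG, and 8.18, 8.58 and 8.19 in null. It fell in null by 0.77 on the log2 scale (SE 0.12, adjusted p = 0.0011), and the ΔG difference of 0.53 was not called (adjusted p = 0.075). Array medians lay between 6.33 and 6.4, so the Rb1 probe set kept a signal above them in null. The arrays split by Xist and the Y-linked genes: WT replicate 3 and all null arrays had Xist at 11.42 to 11.98 and a mean Y-linked signal of 3.96 to 4.37, whereas WT replicates 1 and 2 and all ΔG arrays had Xist at 4.24 to 4.45 and a Y-linked mean of 8.4 to 8.9. The labels give no sex. Between ΔG and null this pattern and the genotype therefore cannot be told apart, and in the comparisons against WT it is shared by only some of the WT arrays. Fewer cells of one type and less RNA per cell cannot be told apart in such bulk samples.

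With all WT arrays as control, more interferon-stimulated genes rose than fell in null, and in ΔG 1 member, Ifit2, rose. In null against WT, 12 of the 37 rose and 2 fell, where 8.38% of all genes rose and 10.1% fell. In ΔG against WT, 1 member rose and 0 fell by limma, beside 0.602% and 0.211% of all genes. At an unadjusted p under 0.05, 3 members lay higher and 8 lower in ΔG than in WT, beside 5.3% and 6.46% of all genes. Between ΔG and null, 1 member was higher in ΔG and 11 were lower, beside 4.44% and 4.27% of all genes. WT replicate 3 was the WT array with the Xist pattern of the null arrays. With it as the only control, the members' median log2 difference in null was 0.2, beside 0.28 with all WT arrays. With the mean Y-linked signal as a term of the fit, limma called 4 members in null, beside 1580 of the 19938 genes. Of these members, Ifit2 and Ifi35 rose, and Trim25 and Mx2 fell.

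The median log2 difference of the 37 genes was 0.28 in null against WT, beside -0.01 over all genes, with 32 members above 0 and 5 below. In ΔG against WT the median was -0.088, beside -0.018 over all genes, with 10 members above 0 and 27 below. Between ΔG and null it was -0.27, beside -0.0075, with 3 above and 34 below. The comparisons share arrays, so they are not independent of one another.

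**Figure D1:**
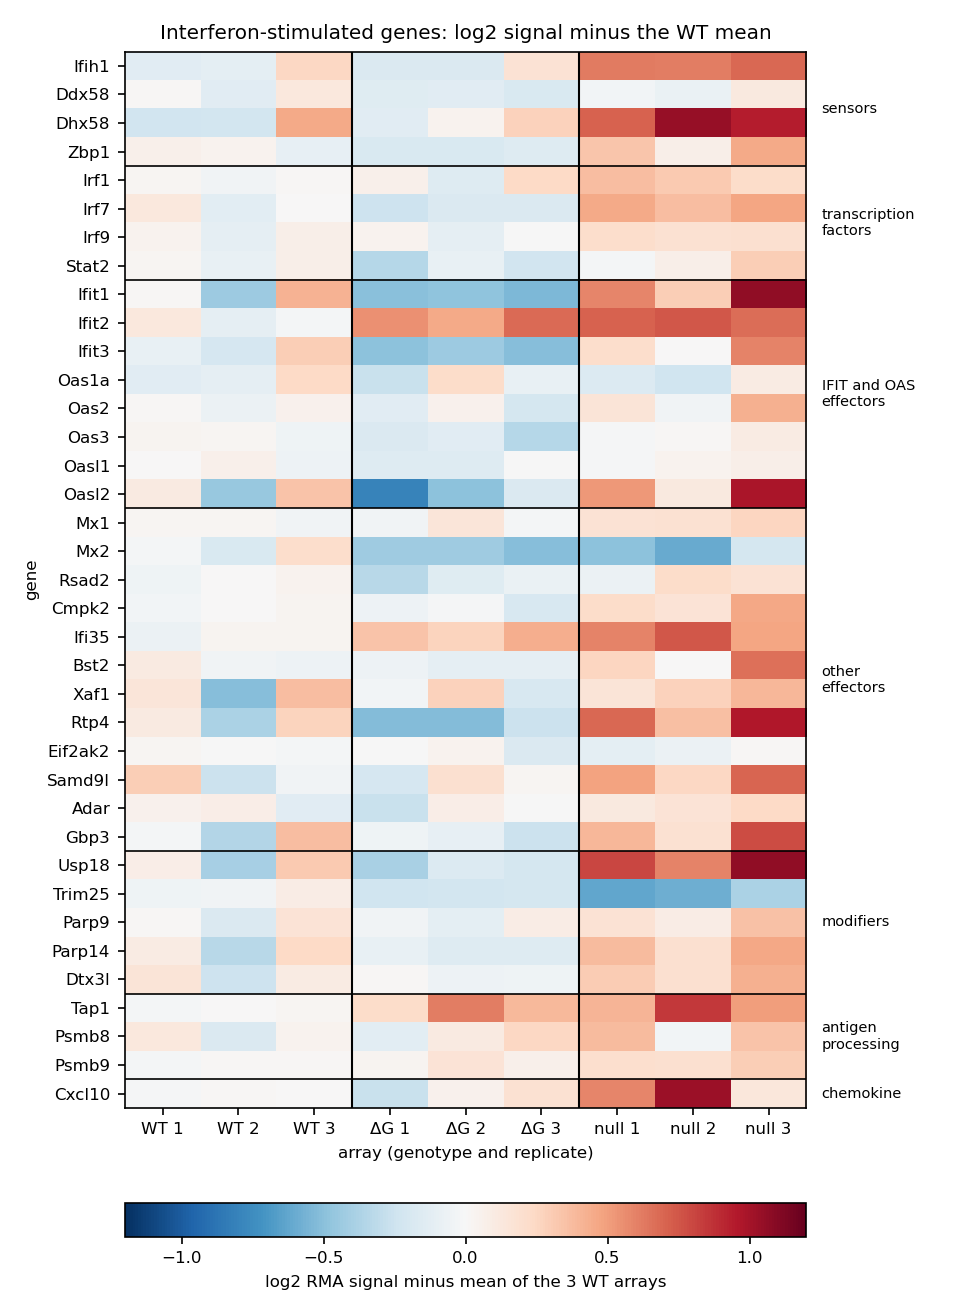
Log2 signal of the 37 measured interferon-stimulated genes on each of the 9 arrays, minus the mean of the 3 WT arrays of the gene, grouped by role; red is above and blue below the WT mean. The null columns are mostly red, with Trim25 and Mx2 blue, and the ΔG columns are mostly pale or blue except for Ifit2, Ifi35 and Tap1.

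Among the 4 sensors, 2 rose in null and none in ΔG. Ifih1, which encodes MDA5, a detector of long double-stranded RNA in the cytoplasm, measured 6.89, 6.91 and 7.27 in WT, 6.85, 6.85 and 7.2 in ΔG, and 7.65, 7.64 and 7.71 in null. All null arrays lay above every other array, while WT replicate 3 and ΔG replicate 3 stood above the rest of their groups. Ifih1 rose in null by 0.64 (SE 0.12, 1.56-fold, adjusted p = 0.0032), and it fell in ΔG against null by 0.7 (adjusted p = 0.0049). Dhx58, which encodes LGP2, a helicase that modulates RNA sensing, measured 5.9, 5.91 and 6.59 in WT, 6, 6.18 and 6.41 in ΔG, and 6.84, 7.18 and 7.08 in null. The null arrays were again highest, and WT replicate 3 was the highest WT array by a wide margin. Dhx58 rose by 0.9 in null (SE 0.17, 1.86-fold, adjusted p = 0.0044), the largest rise among the members with all WT arrays as control, and fell in ΔG against null by 0.84 (adjusted p = 0.013). Against WT replicate 3 alone Dhx58 differed by 0.44 (adjusted p = 0.12), less than Ifit2. The call between ΔG and null was lost without ΔG replicate 1 (adjusted p = 0.064) or ΔG replicate 2 (adjusted p = 0.051).

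The third RNA sensor, Ddx58, encodes RIG-I, which detects RNA with a triphosphate end, and it measured 9.71, 9.56 and 9.82 in WT, 9.55, 9.56 and 9.51 in ΔG, and 9.66, 9.62 and 9.81 in null. The WT and null arrays overlapped, with a difference of -0.0022 (SE 0.083, adjusted p = 0.99). Zbp1, a sensor of left-handed nucleic acids that can start necroptosis, measured 6.02, 6 and 5.86 in WT, 5.78, 5.78 and 5.81 in ΔG, and 6.29, 6.03 and 6.41 in null. The 3 groups did not overlap, with ΔG lowest and null highest. Only the difference of -0.45 between ΔG and null was called (SE 0.094, adjusted p = 0.013), and it was lost without ΔG replicate 1 (adjusted p = 0.053) or null replicate 1 (adjusted p = 0.061).

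Of the 4 transcription factors, Irf7 was the one that changed. Irf7 is the main driver of the second wave of type I interferon genes, and it measured 6.96, 6.71 and 6.84 in WT, 6.59, 6.66 and 6.66 in ΔG, and 7.29, 7.21 and 7.31 in null. The groups did not overlap, and ΔG lay at the bottom. Irf7 rose in null by 0.43 (SE 0.077, 1.35-fold, adjusted p = 0.0028) and fell in ΔG against null by 0.63 (adjusted p = 0.00091), and its difference between ΔG and WT was -0.2 (adjusted p = 0.33). Stat2, a subunit of the factor that binds the ISRE, measured 9.15, 9.03 and 9.19 in WT, 8.78, 9.03 and 8.89 in ΔG, and 9.1, 9.19 and 9.42 in null. ΔG replicate 1 was the lowest array and null replicate 3 the highest, and no comparison of Stat2 was called. Its partner Irf9 and the general activator Irf1 had null-against-WT differences of 0.19 (adjusted p = 0.099) and 0.3 (adjusted p = 0.052).

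The 8 measured members of the IFIT and OAS families, which bind foreign RNA or make the messenger that activates RNase L, held 2 genes that rose in null and 1 that rose in ΔG. Ifit2, whose protein binds AU-rich RNA and can promote cell death, measured 7.1, 6.87 and 6.95 in WT, 7.52, 7.43 and 7.65 in ΔG, and 7.68, 7.72 and 7.64 in null. Every ΔG and null array lay above every WT array. Ifit2 rose in ΔG by 0.56 (SE 0.083, 1.47-fold, adjusted p = 0.011) and in null by 0.71 (SE 0.083, 1.63-fold, adjusted p = 0.00021), and the ΔG and null arrays overlapped (difference -0.15, SE 0.083, adjusted p = 0.33). Without WT replicate 2 the ΔG difference was 0.5 and its adjusted p was 0.06. The null call held under all 20 alternatives tried.

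Ifit1, whose protein binds the cap of viral RNA, and Ifit3, its binding partner, are neighbours of Ifit2 on chromosome 19 and were not called in ΔG against WT. Ifit1 measured 8.36, 7.91 and 8.76 in WT, 7.84, 7.86 and 7.8 in ΔG, and 8.93, 8.64 and 9.41 in null. The ΔG arrays lay together below all WT arrays, and the WT and null arrays overlapped. Ifit1 differed by -0.51 in ΔG against WT (SE 0.21, adjusted p = 0.36), rose by 0.65 in null (adjusted p = 0.05, at the threshold) and fell in ΔG against null by 1.16 (2.24-fold, adjusted p = 0.0063). The call against WT was lost in 15 of 20 alternatives, among them those without WT replicate 1 or 2, any 1 of the ΔG arrays, or null replicate 1 or 3 (adjusted p = 0.054 to 0.18).

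Ifit3 measured 8.93, 8.82 and 9.32 in WT, 8.53, 8.59 and 8.51 in ΔG, and 9.23, 9.03 and 9.62 in null. As for Ifit1, ΔG lay below both other groups, which overlapped. Ifit3 fell in ΔG against null by 0.75 (SE 0.15, adjusted p = 0.011), and its differences from WT were -0.48 in ΔG (adjusted p = 0.2) and 0.27 in null (adjusted p = 0.26). Oasl2, an OAS-like protein with ubiquitin-like domains, measured 8.28, 7.72 and 8.52 in WT, 7.37, 7.68 and 8 in ΔG, and 8.69, 8.29 and 9.15 in null. The spread within each genotype was wide, and only ΔG and null did not overlap. Oasl2 fell in ΔG against null by 1.03 (SE 0.24, adjusted p = 0.022), a call lost without ΔG replicate 1 or 2 or null replicate 1 or 3 (adjusted p = 0.072 to 0.094).

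The promoters of Ifit2, Tap1, Ifit1 and Trim25 are printed next. Ifit2 and Tap1, like Psmb9, carry letters of an E2F site, and Ifit1 and Trim25 carry ISRE letters. ISRE letters also stand in windows of members called in no comparison, among them Ddx58, Oas1a, Oas3 and Eif2ak2. Whether the letters have a part in the differences was not tested. The windows are RefSeq's, on assembly GRCm38.p6, around the annotated transcription start, 5′ to 3′ on the strand of the gene. Capitals mark matches, on either strand, to the ISRE (GAAANNGAA), the interferon gamma-activated element called GAS (TTCNNNGAA) or an E2F site (TTTGGCGC or TTTCCCGC). Ifit2 and Trim25 were taken by lowest p, and Ifit1 and Tap1 were chosen after their values were seen. The rule of lowest p also took Ifi35 and Irf7, whose matches are given below without their sequences. Their places are chr19:34550444-34550743 for Ifit2, chr17:34187306-34187605 for Tap1, chr19:34640639-34640938 for Ifit1 and chr11:88999153-88999452 for Trim25, all on the plus strand.
Ifit2: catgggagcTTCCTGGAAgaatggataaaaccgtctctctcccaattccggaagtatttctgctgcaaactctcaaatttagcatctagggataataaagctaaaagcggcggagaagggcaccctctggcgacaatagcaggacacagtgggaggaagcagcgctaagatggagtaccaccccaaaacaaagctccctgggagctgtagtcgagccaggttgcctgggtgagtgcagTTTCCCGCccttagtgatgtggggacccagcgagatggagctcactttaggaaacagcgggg
Tap1: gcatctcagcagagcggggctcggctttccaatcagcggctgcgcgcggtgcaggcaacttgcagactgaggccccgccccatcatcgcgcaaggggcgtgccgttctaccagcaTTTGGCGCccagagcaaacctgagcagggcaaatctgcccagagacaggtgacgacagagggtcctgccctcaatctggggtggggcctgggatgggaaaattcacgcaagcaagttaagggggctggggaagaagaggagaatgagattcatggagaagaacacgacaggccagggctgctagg
Ifit1: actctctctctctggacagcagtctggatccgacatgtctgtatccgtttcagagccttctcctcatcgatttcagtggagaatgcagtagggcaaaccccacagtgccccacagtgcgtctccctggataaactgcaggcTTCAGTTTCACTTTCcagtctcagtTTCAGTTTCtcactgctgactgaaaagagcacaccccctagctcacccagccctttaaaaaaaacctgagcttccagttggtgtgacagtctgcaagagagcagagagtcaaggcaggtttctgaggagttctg
Trim25: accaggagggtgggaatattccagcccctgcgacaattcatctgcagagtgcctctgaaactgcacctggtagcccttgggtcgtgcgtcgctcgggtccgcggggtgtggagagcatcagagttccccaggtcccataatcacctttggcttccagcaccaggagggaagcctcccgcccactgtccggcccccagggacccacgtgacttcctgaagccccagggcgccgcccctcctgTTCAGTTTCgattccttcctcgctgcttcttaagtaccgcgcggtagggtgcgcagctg

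Counted from the start, with minus for bases before it, the E2F letters of the Ifit2 window stand at positions -12 to -5 and a GAS match at -241 to -233, and no ISRE match was found there. A further RefSeq start of Ifit2 had no match in its window. The Ifit1 window holds 3 ISRE matches between positions -109 and -76, of which the first and the second overlap. The Trim25 window holds 1 ISRE match, at positions -9 to -1. In the Tap1 window the E2F letters lie at positions -135 to -128. Psmb9 starts in the opposite direction nearby, and the same letters, read on the other strand, lie at positions -98 to -91 of its start.

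RefSeq windows were found for 28 of the 37 measured members, 34 windows in all, and were compared with 32851 windows of all genes. The ISRE letters occurred in 44.1% of the members' windows and 8.56% of all windows. The GAS letters occurred in 23.5% and 8.3%, and the E2F letters in 8.82% and 1.56%. The E2F matches among the members were those of Ifit2, Tap1 and Psmb9. Those of Tap1 and Psmb9 are the same bases of the chromosome read on opposite strands, so that site was counted in both windows. The windows of the called members Ifi35 and Irf7 held a GAS match at bases 8 to 16 after the start, and no match, respectively. A match is a run of letters, and binding was not measured here.

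**Figure D2:**
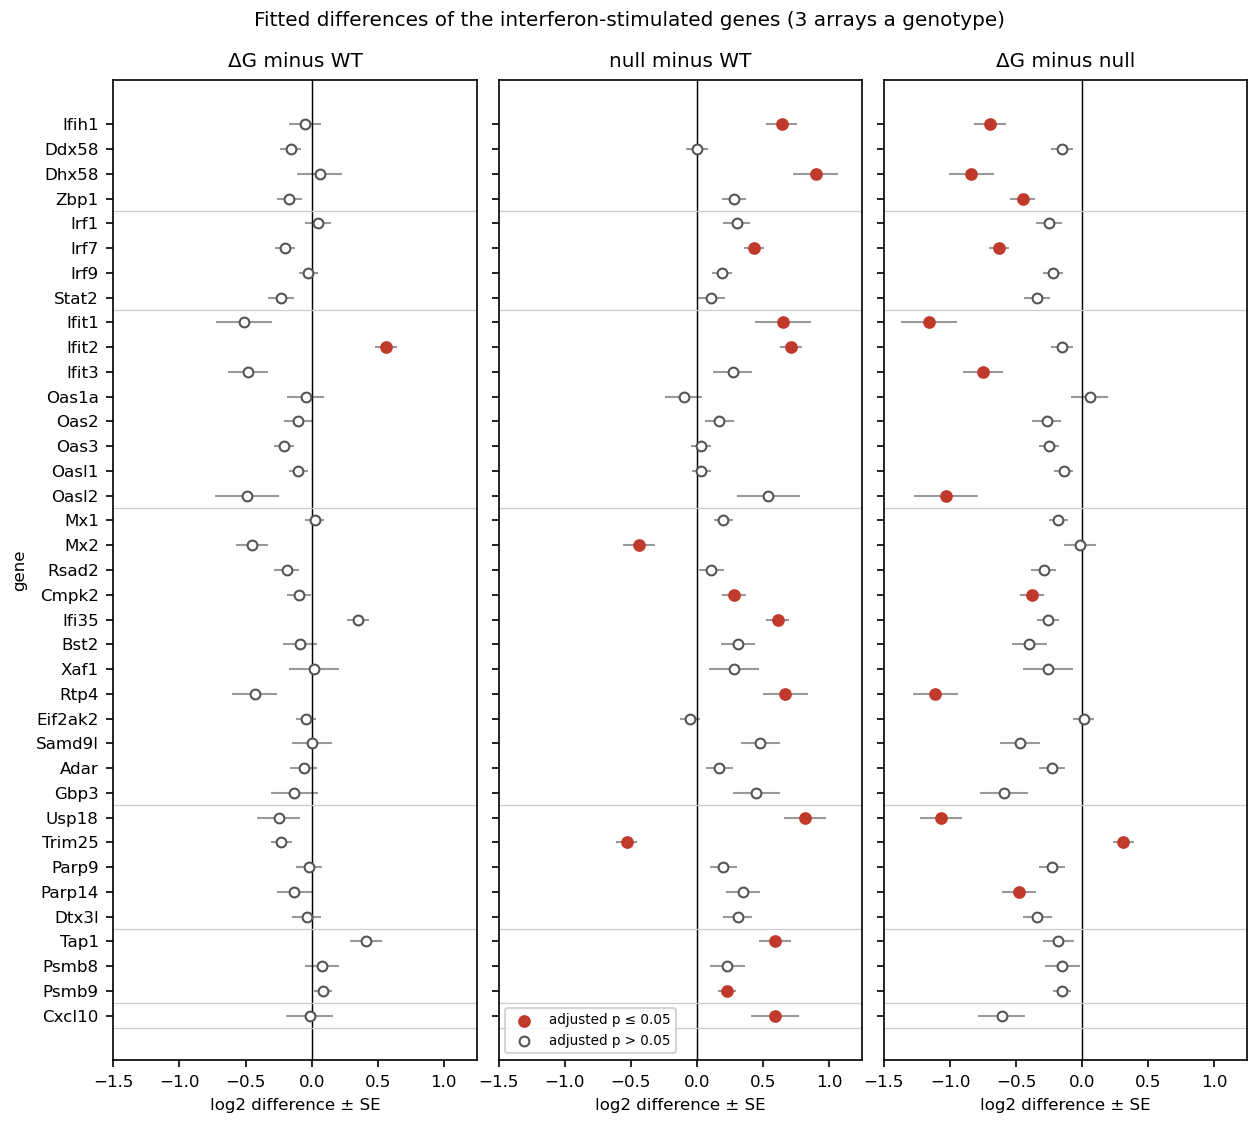
Fitted log2 difference of each measured interferon-stimulated gene (points) with its SE (bars) in the 3 comparisons, 3 arrays per genotype; filled points are called at an adjusted p at or under 0.05. Ifit2 is the filled point in ΔG minus WT, whereas null minus WT has 14 filled points and ΔG minus null has 12.

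Among the 12 other effectors measured, 3 rose and 1 fell in null. Ifi35, a partner of NMI that is released by activated macrophages as an alarm signal, measured 7.89, 7.99 and 7.99 in WT, 8.3, 8.22 and 8.39 in ΔG, and 8.55, 8.7 and 8.43 in null. The 3 groups formed a ladder without overlap, with ΔG in the middle. Ifi35 rose in null by 0.61 (SE 0.084, 1.53-fold, adjusted p = 0.00057), a call that held under all 20 alternatives. The ΔG difference was 0.35 (SE 0.084, adjusted p = 0.095). It was called after repeated quantile normalisation and with array weights.

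Rtp4, a chaperone of receptors that also binds viral RNA, measured 7.77, 7.28 and 7.93 in WT, 7.14, 7.14 and 7.4 in ΔG, and 8.35, 8.02 and 8.62 in null. The null arrays were highest, and ΔG replicate 3 overlapped the WT range. Rtp4 rose in null by 0.67 (SE 0.17, adjusted p = 0.02) and fell in ΔG against null by 1.11 (2.15-fold, adjusted p = 0.0033). The rise was not called without WT replicate 2 or null replicate 1 or 3 (adjusted p = 0.064 to 0.078). Cmpk2, a mitochondrial nucleotide kinase that lies next to the antiviral gene Rsad2, measured 5.11, 5.15 and 5.18 in WT, 5.09, 5.13 and 4.95 in ΔG, and 5.37, 5.31 and 5.61 in null. Its null arrays lay above all others by a small margin, and all its values lay below the array medians. Cmpk2 rose in null by 0.28 (SE 0.089, adjusted p = 0.046) and fell in ΔG against null by 0.38 (adjusted p = 0.023). The first call was lost without any 1 of the WT arrays, ΔG replicate 1 or 2, or null replicate 1 or 3 (adjusted p = 0.055 to 0.15), and the second without ΔG replicate 1 or 3 or null replicate 1 or 3 (adjusted p = 0.051 to 0.07).

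Mx2, a dynamin-like GTPase that restricts viruses, fell in null. It measured 6.39, 6.23 and 6.63 in WT, 5.99, 5.99 and 5.91 in ΔG, and 5.92, 5.81 and 6.21 in null. Every ΔG and null array lay below every WT array. Mx2 changed by -0.44 in null (SE 0.12, 1.35-fold, adjusted p = 0.024), and the ΔG difference was -0.45 (SE 0.12, adjusted p = 0.13). The call was lost without WT replicate 1 or 3 or null replicate 1 or 2 (adjusted p = 0.053 to 0.09). Its relative Mx1 measured 4.68, 4.68 and 4.61 in WT, 4.61, 4.8 and 4.63 in ΔG, and 4.83, 4.84 and 4.91 in null. Mx1 had a null difference of 0.2, not called (adjusted p = 0.079).

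Of the 5 measured ubiquitin-like and ADP-ribose modifiers, 1 rose and 1 fell in null. Usp18, the protease that removes ISG15 and dampens signalling at the interferon receptor, measured 8.32, 7.84 and 8.55 in WT, 7.85, 8.07 and 8.03 in ΔG, and 9.04, 8.83 and 9.3 in null. The null arrays lay above all others, and WT and ΔG overlapped. Usp18 rose in null by 0.82 (SE 0.16, 1.76-fold, adjusted p = 0.0053) and fell in ΔG against null by 1.07 (adjusted p = 0.0029).

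Trim25, the ubiquitin ligase that helps to activate RIG-I, measured 8.3, 8.31 and 8.44 in WT, 8.11, 8.13 and 8.14 in ΔG, and 7.73, 7.76 and 7.97 in null. The groups stepped down without overlap from WT through ΔG to null. Trim25 fell in null by 0.53 (SE 0.08, 1.45-fold, adjusted p = 0.00098), which held under all 20 alternatives, and its ΔG difference was -0.23 (adjusted p = 0.27). It rose in ΔG against null by 0.31 (adjusted p = 0.036), a call lost without any 1 of the ΔG arrays or null replicate 1 or 2 (adjusted p = 0.059 to 0.15). Parp14, an ADP-ribosyltransferase, measured 6.36, 5.93 and 6.5 in WT, 6.17, 6.11 and 6.11 in ΔG, and 6.64, 6.46 and 6.73 in null. The WT arrays spanned most of the range of the other groups. Parp14 fell in ΔG against null by 0.48 (SE 0.13, adjusted p = 0.039), a call lost without any 1 of the ΔG arrays or null replicate 1 or 3 (adjusted p = 0.061 to 0.13).

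The 3 antigen-processing genes lie side by side on chromosome 17, and 2 of them rose in null. Tap1, a subunit of the pump that brings peptides to MHC class I, measured 8.62, 8.64 and 8.66 in WT, 8.86, 9.25 and 9.03 in ΔG, and 9.05, 9.49 and 9.14 in null. The WT arrays were almost equal, and every ΔG and null array lay above them. Tap1 rose in null by 0.59 (SE 0.12, 1.5-fold, adjusted p = 0.0063), and its ΔG difference was 0.41 (SE 0.12, adjusted p = 0.19). Psmb9, an immunoproteasome subunit, measured 6.48, 6.51 and 6.51 in WT, 6.53, 6.66 and 6.56 in ΔG, and 6.7, 6.69 and 6.8 in null. The groups did not overlap, although the steps were small. Psmb9 rose in null by 0.23 (SE 0.068, adjusted p = 0.035), and the call was lost without any 1 of the 6 arrays of these 2 genotypes (adjusted p = 0.055 to 0.11).

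Cxcl10, the chemokine that attracts activated T cells, measured 5.74, 5.76 and 5.75 in WT, 5.48, 5.8 and 5.93 in ΔG, and 6.34, 6.78 and 5.89 in null. The null arrays differed widely among themselves, and null replicate 3, the highest null array for most other members, was the lowest here. Cxcl10 rose in null by 0.59 (SE 0.18, adjusted p = 0.045). The call was lost without any 1 of the WT arrays, ΔG replicate 2, or null replicate 1 or 2 (adjusted p = 0.061 to 0.14).

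**Figure D3:**
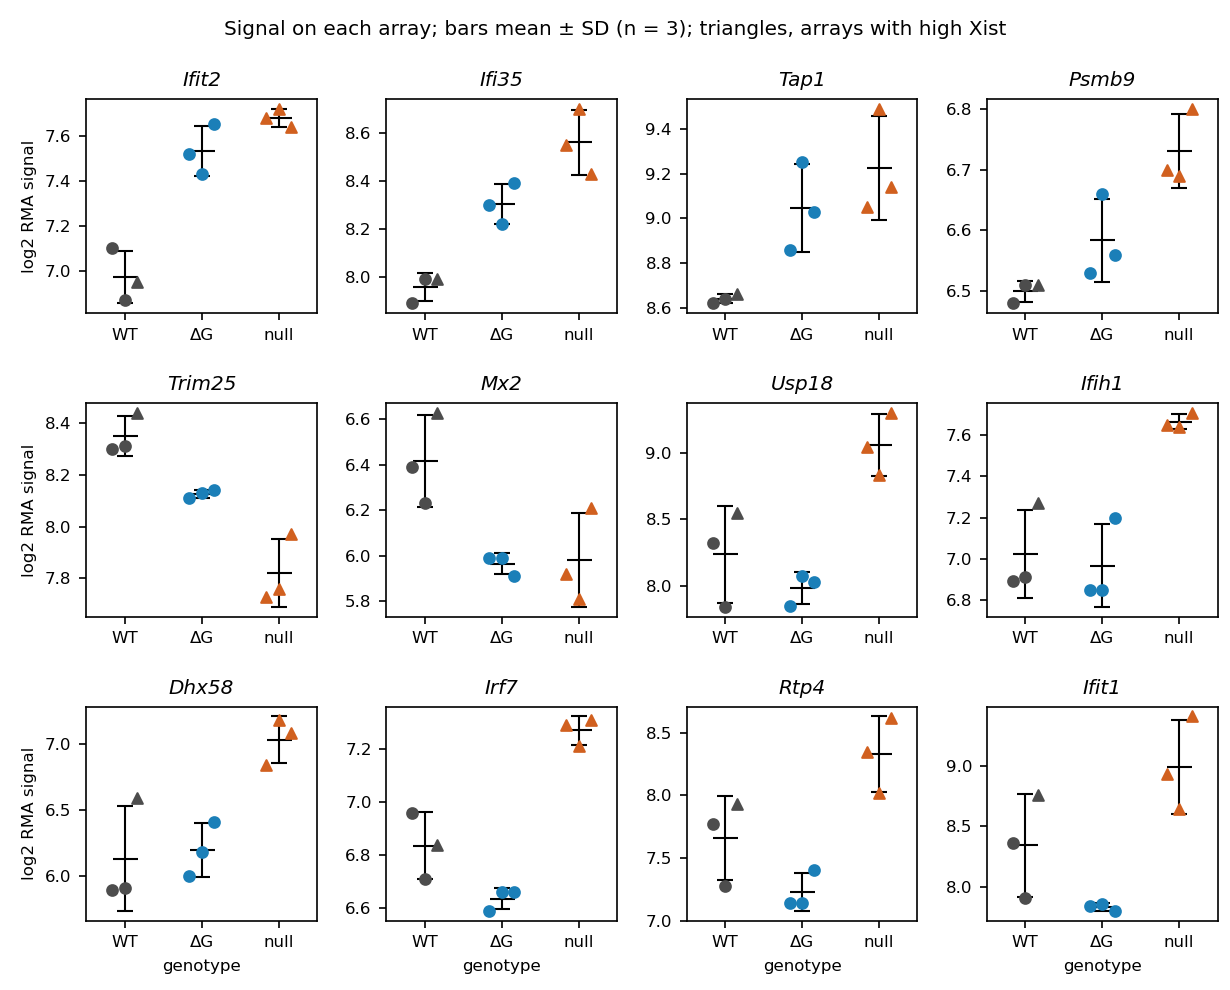
Log2 signal of 12 members on each array by genotype, with the mean and SD of 3 arrays as bars; triangles are the arrays with high Xist, and each panel has its own axis. In the upper row ΔG lies between WT and null, and in Usp18, Ifih1, Irf7, Rtp4 and Ifit1 the null mean is highest and the ΔG mean lies below the WT mean.

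The other 16 measured members, among them Oas1a, Oas2, Oas3, Rsad2, Bst2, Eif2ak2, Adar, Gbp3 and Psmb8, were called in no comparison. Their differences ran from -0.1 to 0.48 in null against WT (lowest adjusted p 0.052), from -0.21 to 0.077 in ΔG against WT (lowest adjusted p 0.27) and from -0.59 to 0.058 in ΔG against null (lowest adjusted p 0.065). The 3 OAS enzymes Oas1a, Oas2 and Oas3 had null differences of -0.1, 0.17 and 0.033, and the kinase PKR, encoded by Eif2ak2, one of -0.054.

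Within WT and null, 1 array was the highest for more of the members than of all genes. The mean log2 signal of the 37 genes came to 7.18, 7.01 and 7.26 in WT, 7, 7.09 and 7.09 in ΔG, and 7.41, 7.36 and 7.57 in null. Null replicate 3 was the highest null array for 28 of the 37, beside 25.2% of all genes, and WT replicate 3 was the highest WT array for 21, beside 32.8%. WT replicate 2 was the lowest WT array for 20, beside 26.5%. In ΔG the array most often highest, replicate 2, was so for 17 of the 37, near its share of 39.9% of all genes. The median SD of the members came to 0.12 in WT, 0.11 in ΔG and 0.16 in null, beside 0.1, 0.1 and 0.092 over all genes. Without ΔG replicate 3 the number of all genes called in ΔG against WT went from 162 to 252, and Ifit2 stayed the 1 called member. Counts of called members moved with single arrays, and so did those of all genes. In null against WT, 14 members and 3678 genes were called with all arrays. Leaving out null replicate 1 left 8 members and 2546 genes, and leaving out WT replicate 2 left 9 members and 2611 genes. Between ΔG and null, 12 members and 1737 genes were called with all arrays. Left were 6 members and 762 genes without ΔG replicate 1, and 8 and 885 without ΔG replicate 2. Without null replicate 1, 8 members and 847 genes were called.

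The choice of WT arrays divided the members called in null. Against WT replicate 3 alone, the WT array with the Xist and Y-linked pattern of the null arrays, 5 of the 14 were called: Ifit2 at 0.73 (adjusted p = 0.0053), Ifi35 at 0.58 (0.015), Trim25 at -0.62 (0.0066), Mx2 at -0.65 (0.018) and Irf7 at 0.43 (0.039). That setting was chosen after the data were seen, and its lone WT array is assumed to vary like the other groups. With the Y-linked mean as a term of the fit, 4 remained: Ifit2, Ifi35, Trim25 and Mx2. Within a genotype that mean varied mostly in WT (8.48, 8.88 and 4.37). The fit with this term therefore also leans on WT replicate 3 and is not an independent check of the setting before it. Tap1 kept its size, at 0.57 in both settings, but was not called (adjusted p = 0.073 and 0.095). Cxcl10, Psmb9 and Cmpk2 also kept theirs against WT replicate 3, at 0.59, 0.22 and 0.25, and lost their calls (adjusted p = 0.21, 0.2 and 0.28). Irf7 was 0.41 with the Y-linked term (adjusted p = 0.062). WT replicate 3 was the highest WT array for Ifih1, Dhx58, Usp18, Rtp4 and Ifit1. In 1 array that level and the Xist pattern cannot be told apart. The differences of these 5 genes against WT replicate 3 were, in that order, 0.4, 0.44, 0.51, 0.41 and 0.23. They were smaller than the 0.64, 0.9, 0.82, 0.67 and 0.65 against all WT arrays. Under the same change the number of all genes called in null against WT went from 3678 to 2010. With the Y-linked term, ΔG against null had 0 of the 37 members called by limma, beside 53 genes in all. The ΔG arrays all have high and the null arrays all low Y-linked signal, so this fit can hardly separate the term from the genotypes and says little about the members. The differences of Irf7, Trim25 and Cxcl10 in it were -0.6, 0.45 and -0.58, beside -0.63, 0.31 and -0.61 without the term.

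**Figure D4:**
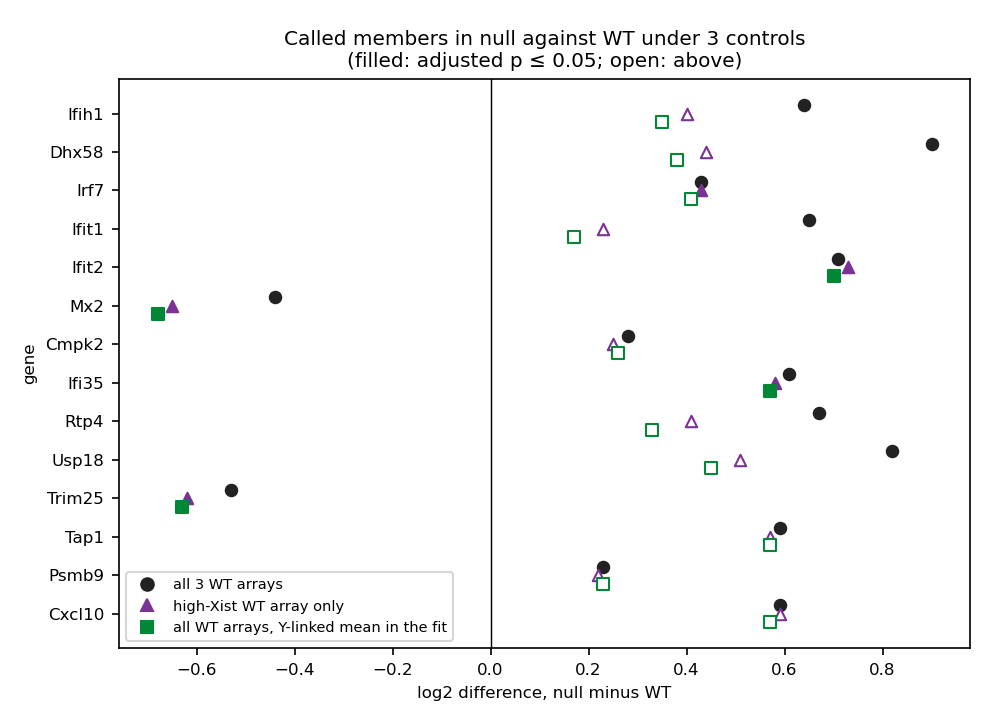
Log2 difference between null and WT of the 14 called members with all 3 WT arrays as the control (circles), with WT replicate 3, the high-Xist WT array, alone (triangles) and with the Y-linked mean in the fit (squares); filled symbols have an adjusted p at or under 0.05. Ifit2, Ifi35, Mx2 and Trim25 stay filled under all 3, whereas Ifih1, Dhx58, Ifit1, Rtp4 and Usp18 move toward 0. The triangles and the squares both lean on WT replicate 3 and are not independent of each other.

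The counts of the related lists that follow stand beside 8.38% of all genes that rose in null and 10.1% that fell. Upstream of these genes, 1 of 8 measured interferon ligands rose and 1 fell in null, near those shares, and Ifna4 and Ifnb1 lay below the median signal of every array. Ifna4, an interferon alpha, measured 4.69, 4.71 and 4.68 in WT, 4.63, 4.61 and 4.74 in ΔG, and 4.89, 4.97 and 4.91 in null, and it rose in null by 0.23 (adjusted p = 0.032). Ifnl2, an interferon lambda, fell in null by 0.29 (adjusted p = 0.031). The Ifna4 call was lost without any 1 of the 6 WT and null arrays (adjusted p = 0.063 to 0.095), and the Ifnl2 call without WT replicate 1 or 2 or null replicate 2 or 3 (adjusted p = 0.084 to 0.095). Ifnb1, the interferon beta of fibroblasts, measured 4.65, 4.7 and 4.64 in WT, 4.72, 4.61 and 4.62 in ΔG, and 4.58, 4.62 and 4.62 in null, all within a narrow range.

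Of 13 measured receptor and JAK-STAT genes, 5 fell in null and 0 rose, and in ΔG against WT limma called 0, with 2 lower at an unadjusted p under 0.05. Both chains of the type I receptor fell, Ifnar1 by 0.3 (adjusted p = 0.03) and Ifnar2 by 0.43 (adjusted p = 0.0015). The interferon gamma receptor chain Ifngr1 fell by 0.35 (adjusted p = 0.011) and the kinase gene Jak2 by 0.43 (adjusted p = 0.0013). The kinase genes Jak1 and Tyk2 were not called by limma, with null differences of 0.12 (adjusted p = 0.5) and 0.0043 (adjusted p = 0.99). Jak2 measured 9.15, 9.1 and 9.26 in WT, 9.14, 9.11 and 9.15 in ΔG, and 8.79, 8.72 and 8.71 in null, with null below all other arrays. Against WT replicate 3 alone Jak2 and Ifnar2 stayed called (adjusted p = 0.0067 and 0.032), whereas Ifnar1 was -0.13 (adjusted p = 0.49) and Ifngr1 was -0.35 (adjusted p = 0.1). The call of Ifnar1 was also lost without WT replicate 1 or 2 or any 1 of the null arrays (adjusted p = 0.054 to 0.12). With the Y-linked term the Ifnar2 difference was -0.39, and its call was lost.

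Of 19 measured genes that induce interferon or, by clearing nucleic acids, restrain its induction, 5 rose and 1 fell in null. Cgas, the sensor of cytoplasmic DNA, measured 5.17, 5 and 5.08 in WT, 5.28, 5.32 and 5.57 in ΔG, and 5.86, 5.93 and 5.65 in null, a ladder without overlap. All of these values lay below the array medians. Cgas rose in null by 0.72 (SE 0.1, 1.65-fold, adjusted p = 0.00056), a call kept under all 20 alternatives, and its ΔG difference was 0.3 (adjusted p = 0.23). Rnaseh2a and Rnaseh2b, subunits of the enzyme that removes RNA from RNA-DNA hybrids and a restraint on interferon induction, rose in null by 0.46 (adjusted p = 0.0071) and 0.48 (adjusted p = 0.0018), and Myd88, an adaptor of Toll-like receptors, by 0.48 (adjusted p = 0.016). The fifth gene that rose, Samhd1, encodes an enzyme that breaks down nucleotides and is also a restraint on induction. Samhd1 rose by 0.33 (adjusted p = 0.048, near the threshold), with WT replicate 3 at 8.87 and null replicate 3 at 8.9. The Myd88 call was lost without WT replicate 3 (adjusted p = 0.057) or null replicate 2 (adjusted p = 0.054). Rnaseh2a, Rnaseh2b and Myd88 were also called against WT replicate 3 alone (adjusted p = 0.044, 0.04 and 0.027), but not with the Y-linked term (adjusted p = 0.069, 0.062 and 0.052).

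Of 11 further MHC class I genes 1 rose in null: Psme1, a proteasome activator subunit, by 0.5 (adjusted p = 0.012). B2m, the MHC class I light chain, differed by -0.32 in null (adjusted p = 0.16). Of 34 further interferon-stimulated genes measured, 9 rose and 2 fell in null, and 2 rose in ΔG. Herc6, the mouse ligase that attaches ISG15, measured 6.17, 6 and 6.18 in WT, 6.78, 7.12 and 6.85 in ΔG, and 7.24, 7.31 and 7.41 in null. Its groups formed a ladder without overlap, like those of Ifi35. Herc6 rose in ΔG by 0.8 (SE 0.1, 1.74-fold, adjusted p = 0.0035) and in null by 1.2 (2.3-fold, adjusted p = 2.2e-05), and both calls held under all 20 alternatives.

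Trim30a, a negative regulator of Toll-like receptor signalling, rose in ΔG against both other genotypes. It measured 5.62, 5.94 and 5.74 in WT, 6.63, 6.51 and 6.3 in ΔG, and 5.72, 5.49 and 5.62 in null. Trim30a rose by 0.71 in ΔG against WT (SE 0.11, adjusted p = 0.011; 0.056 without ΔG replicate 2) and by 0.87 in ΔG against null (adjusted p = 0.00093). The GTPase gene Iigp1 lay below the median signal of every array. The guanylate-binding gene Gbp7 and Iigp1, both typical of interferon gamma, rose in null by 0.47 (adjusted p = 0.015) and 0.66 (adjusted p = 0.013). Against WT replicate 3 alone they differed by 0.31 (adjusted p = 0.25) and 0.55 (adjusted p = 0.16), and Gbp7 was not called without WT replicate 2 (adjusted p = 0.063) nor Iigp1 without null replicate 1 (adjusted p = 0.051).

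Markers of other cells that respond to or make interferon were examined beside these values. The mean of 16 macrophage and leukocyte markers came to 6.64, 6.18 and 5.45 in WT, 7.26, 6.7 and 5.86 in ΔG, and 6.03, 5.61 and 5.93 in null, and limma called none of the 16 in any comparison. At an unadjusted limma p under 0.05, 2 were higher in ΔG than in WT, beside 5.3% of all genes. Against null, 7 were higher in ΔG, beside 2329 of 19938 genes. All 16 lay above 0 in ΔG against WT (median 0.55) and in ΔG against null (median 0.79). The array means of the groups overlapped, and the null arrays, where the interferon-stimulated genes were highest, lay low in the range of these markers. The means of the 8 measured plasmacytoid dendritic and lymphoid markers lay between 4.93 and 5.07 on all arrays, with none called by limma and 0 at an unadjusted p under 0.05. Of 12 fibroblast markers 9 fell in null, with means of 11.01 to 11.3 in WT, 10.88 to 11.14 in ΔG and 10.38 to 10.59 in null, and Dcn, a matrix proteoglycan, fell by 1.38 (adjusted p = 6.6e-05). Col1a1, which encodes a chain of type I collagen, also fell in null, by 0.49 (adjusted p = 0.0062), with null arrays at 12.05 to 12.24 below all others, at 12.45 to 12.77. The part of these markers in the results above was not tested. Of 6 endothelial markers 1, Emcn, fell in null (adjusted p = 0.049), a call lost in 15 of 20 alternatives. None of 6 epithelial markers was called by limma, and 0 had an unadjusted p under 0.05.

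**Figure D5:**
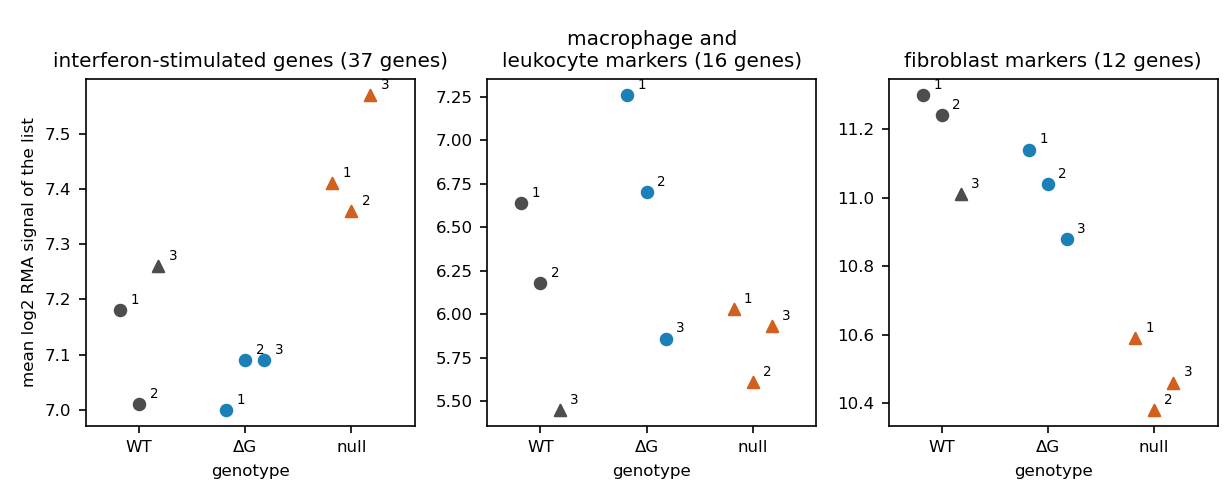
Mean log2 signal per array of the 37 interferon-stimulated genes, 16 macrophage and leukocyte markers and 12 fibroblast markers, by genotype, with replicate numbers and triangles for arrays with high Xist; each panel has its own axis. The 3 null arrays are highest for the interferon-stimulated genes and lowest for the fibroblast markers, and the macrophage markers of the genotypes overlap.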

How the data were processed

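The authors deposited log2 RMA values for 35512 probe sets on 9 arrays (Affymetrix Mouse Gene 1.0 ST). The submitters' processing notes list RMA and affy, and the series text names BRB-ArrayTools. Versions and the set of arrays normalised together were not given in the sources used here. RMA subtracts background, equalises the distributions and summarises probes, which can compress log2 differences of dim genes. Detection calls were not applied; the precision is limited by the number of arrays.

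Genes were named only from the 21789 probe sets that a platform annotation ties to exactly 1 symbol; 1621 had several symbols and 12101 had none. Where a gene had more than 1 such probe set (999 genes), the brightest by mean over all arrays stood for it, leaving 19938 genes. limma 3.58.1 in R 4.3.3 was fitted to all 9 arrays with a mean per genotype and default eBayes (6 residual degrees of freedom), with Benjamini-Hochberg adjustment over all genes within a comparison. The fit was tested on simulated data. The alternatives covered scaling, probe-set choice, a filter on dim genes, the fit, array weights, sex, pairing and each array left out. Residual correlations ran from -0.084 to 0.27 between same-numbered arrays of different genotypes and from -0.24 to 0.14 between differently numbered ones. No label gives the litters, so the numbers were not used as pairs in the main fit. A replicate block was among the alternatives.

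The members, the other gene lists and the tests were chosen with earlier results of these data known. Named genes are all called members, the largest differences of each role group and, per other list, up to 4 called genes by lowest p. Values given for genes outside this rule, among them the called Samhd1 and Col1a1, were chosen after they were seen. The calls of Samhd1 and Col1a1 were not put through the alternatives. Promoter windows came from RefSeq's table for GRCm38.p6, which matched 28 members; array probe positions were not used.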

Additional observations from a re-analysis of the deposited data

How the results depend on the processing

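Over the 20 alternatives, the null calls of Ifit2, Ifi35 and Trim25 held in every one, as did both calls of Herc6 against WT. With the Y-linked mean as covariate, null against WT had 1580 called genes and 4 called members with a median of 0.17, and ΔG against null had 53 called genes and 0 called members. Against WT arrays of the same sex pattern, a setting chosen after the data were seen, null against WT had 2010 called genes and 5 called members with a median of 0.2. Array quality weights raised the counts to 292 genes and 2 members in ΔG against WT, to 4851 genes and 21 members in null against WT and to 3697 genes and 22 members in ΔG against null, and repeated quantile normalisation gave 2 members in ΔG against WT. The cause was not tested.

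Leaving out 1 array at a time gave 62 to 252 genes and 0 to 1 members in ΔG against WT, and 2546 to 3895 genes and 8 to 14 members in null against WT, with a median from 0.2 to 0.36. In ΔG against null it gave 762 to 2408 genes and 6 to 14 members. With the replicate block the counts were 211, 3777 and 1977 genes and 1, 16 and 15 members in ΔG against WT, null against WT and ΔG against null, and the null call of Cmpk2 was lost.

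Only differences that were not called changed sign. In ΔG against WT, Ifih1 was 0.08 with the Y-linked covariate and 0.068 against WT arrays of the same sex pattern, and -0.17 to 0.068 without single arrays, among them 0.0052 and 0.0061; Mx1 was -0.0017 with the covariate. Without single arrays Mx1 ran from -0.034 to 0.056, Dhx58 from -0.055 to 0.29 (also -0.05 and -0.044) and Cxcl10 from -0.11 to 0.11. In null against WT, Ddx58 was 0.06 after repeated quantile normalisation and -0.072 to 0.059 without single arrays (0.0068, 0.017 and 0.035 among them), and Ifit3 was -0.053 with the covariate and -0.022 against WT arrays of the same sex pattern. In ΔG against null, Ddx58 was 0.048 and Mx2 0.34 with the covariate, and Mx2 was 0.027 with array weights and -0.1 to 0.1 without single arrays, 0.012 among them. Signal over background was not assessed, and 3 arrays a genotype limit the precision.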
